A study of Canis lupus familiaris with 8 samples.

Results

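Heat-shock chaperones are proteins that fold other proteins and hold damaged ones, and their genes are among the first that a cell turns up under proteotoxic stress. The set described here was named as 10 genes, with earlier results of these data known. Its members are HSF1, HSPH1, DNAJB1, DNAJA1, HSPA8, BAG3, HSP90AA1, HSPB1, HSPE1 and HSPD1. Rows were taken by gene symbol, and 8 of the 10 symbols were found among the 24580 gene rows of the dog tables. HSPA8 and HSPD1 were matched by no symbol and are not among the 8. A row without a symbol that the files describe as mitochondrial HSP60, the product of HSPD1, is given separately after them. All 8 genes found had a mean above 1 FPKM (fragments scaled to gene length and to library size) and were among the 14808 genes tested. The set is labelled as cytosolic, which does not hold for HSPE1, whose product works inside mitochondria.

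The heat-shock system is built around HSF1, a transcription factor that chaperones hold inactive until unfolded protein draws them away. HSP70 proteins then bind unfolded chains, J-domain proteins such as DNAJB1 and DNAJA1 hand clients to them, and nucleotide exchange factors such as HSPH1 and BAG3 release the client. HSP90 works later in the pathway on signalling proteins, and in tissues of the stress axis it is best known for keeping the glucocorticoid receptor able to bind cortisol. Small heat-shock proteins such as HSPB1 hold unfolded protein without ATP, and HSPE1 is the lid of the mitochondrial folding chamber.

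Messenger RNA was measured in adult Beagles and adult Chinese Field Dogs, in the adrenal cortex, which makes cortisol, and in the pituitary, which drives it. In each breed one arm had been exposed to chronic stress, of a kind that the labels do not name, and the other arm, labelled as non-disposal, was read as unexposed. The stressed Beagle, unexposed Beagle, stressed Chinese Field Dog and unexposed Chinese Field Dog arms each gave 1 library per tissue, so the 8 libraries formed 8 groups without replicates. The labels leave unsaid whether each library is 1 dog or a pool and whether adrenal cortex and pituitary were paired by dog. A p-value here measures no more than how far these libraries spread, which may be technical.

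Recovered reads ranged from 14327357 to 18712035 per library. Of the 8 adrenal cortex markers listed, 6 were matched and summed to between 13980 and 18376 FPKM in the adrenal libraries against 42.9 to 69.4 in the pituitary libraries, where MC2R and MRAP were at 0. The 8 anterior pituitary markers summed to between 82000 and 165569 FPKM in pituitary against 31.2 to 53.7 in adrenal cortex, with GH1 listed at 0 in the unexposed Beagle pituitary. The stressed Chinese Field Dog pituitary stood apart. All 7 forebrain neuron markers were above 0 there and summed to 843 FPKM against 6.28 to 41.0 elsewhere, and the 6 glial markers summed to 533 FPKM against 34.3 to 113 in the other pituitary libraries. In bulk tissue, fewer cells of a type and less RNA per cell cannot be told apart.

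Per length, the median level over the 8 libraries was highest for HSPE1 at 1927 FPKM, then HSP90AA1 at 883, HSPB1 at 446, DNAJA1 at 281, HSPH1 at 54.6, HSF1 at 30.8, DNAJB1 at 15.8 and BAG3 at 11.4 FPKM. The ranges of neighbours in this order overlapped, except that the lowest DNAJA1 level, 215 FPKM, lay above the highest HSPH1 level, 98.6 FPKM. The HSPE1 median fell between the tissues, with 250 to 292 FPKM in pituitary and 3562 to 5219 in adrenal cortex. In pituitary alone HSP90AA1 had the highest median at 804 FPKM, then HSPE1 at 261, DNAJA1 at 248 and HSPB1 at 246. The measured genes therefore form an abundant group of chaperones and a group at lower level that holds the regulator, the exchange factors and the inducible J-domain gene. The largest spread within a tissue was 2.84-fold for HSPH1 among the 4 adrenal libraries, and the smallest was 1.13-fold for HSF1 among the 4 pituitary libraries.

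**Figure D1:**
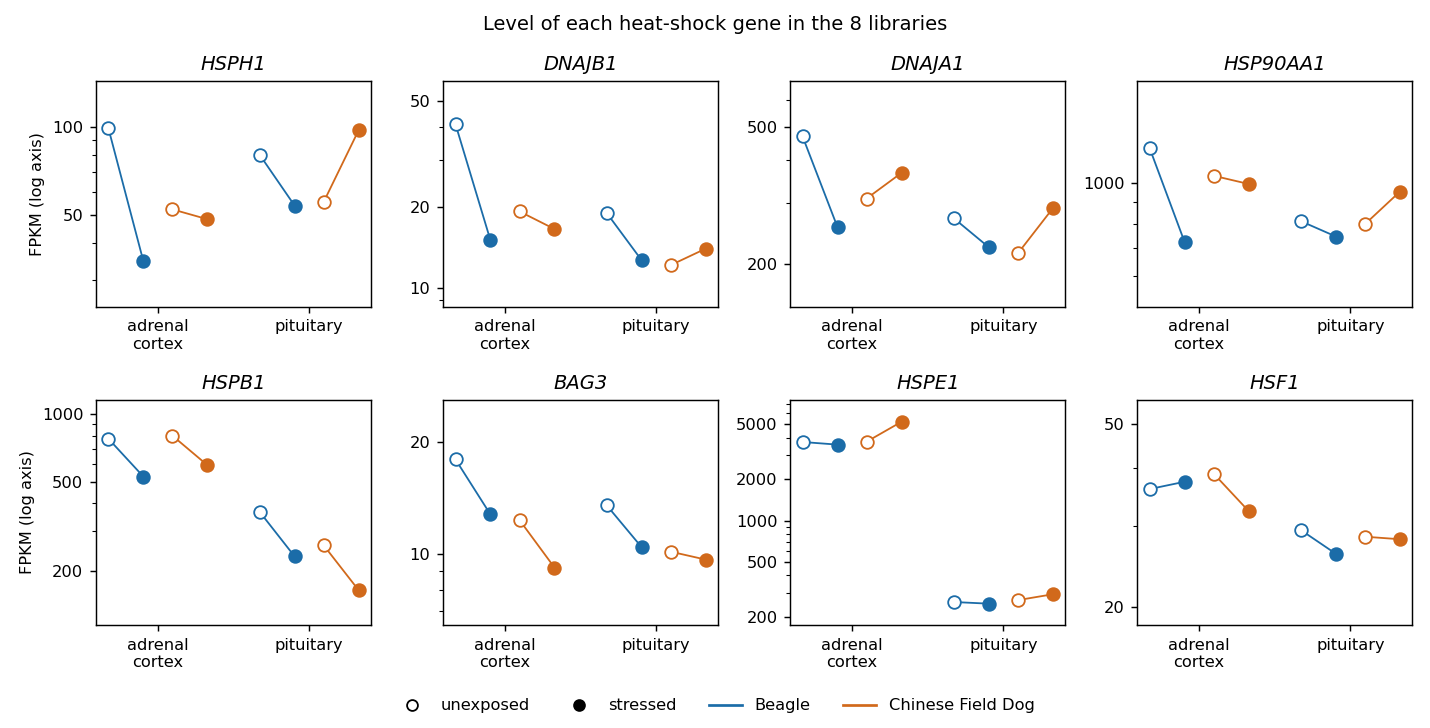
FPKM of each of the 8 genes (vertical axis, logarithmic) in the 4 adrenal cortex and 4 pituitary libraries, with open circles for unexposed and filled circles for stressed dogs, blue for Beagle and orange for Chinese Field Dog. A line joins the 2 libraries of one breed and tissue, and each point is 1 library. HSPH1 falls from 98.6 to 34.8 FPKM along the Beagle adrenal line and climbs from 55.4 to 97.2 along the Chinese Field Dog pituitary line, while all 4 HSPB1 lines point down.

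HSF1, the regulator, lies on chromosome 13 at 37590391 to 37874414 of CanFam3.1, in an interval that the files give to 21 other genes as well. Overlapping gene models may share reads, so the levels of HSF1, and of DNAJA1 and HSPE1 whose intervals are also shared, are uncertain to an extent that was not tested. It read 36.0 FPKM in the unexposed and 37.4 in the stressed Beagle adrenal cortex, and 38.9 and 32.3 in those of the Chinese Field Dog. In pituitary it read 29.3 unexposed and 26.0 stressed in the Beagle, and 28.4 and 28.0 in the Chinese Field Dog. The 4 adrenal libraries were all above the 4 pituitary libraries, while stressed and unexposed libraries overlapped in adrenal cortex. The Chinese Field Dog pituitary pair took opposite signs on the 2 scales, with a log2 ratio of -0.018 in FPKM and 0.016 in scaled counts. Pooled over tissues and breeds, HSF1 was lower by a log2 of -0.10 in stressed dogs (SE 0.08, limma adjusted p = 0.958).

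HSPH1, the HSP110 exchange factor of HSP70, lies on chromosome 25 at 8972957 to 9000762. Beagle adrenal cortex held both the highest level of the 8 libraries, 98.6 FPKM unexposed, and the lowest, 34.8 stressed. The Chinese Field Dog adrenal cortex read 52.2 unexposed and 48.3 stressed. In pituitary the Beagle read 80.0 unexposed and 53.7 stressed, and the Chinese Field Dog 55.4 unexposed and 97.2 stressed. In scaled counts the log2 ratio of stressed to unexposed was -1.46 in Beagle adrenal cortex (95% Clopper-Pearson interval -1.54 to -1.38), -0.59 in Beagle pituitary, -0.09 in Chinese Field Dog adrenal cortex and 0.84 in Chinese Field Dog pituitary (0.78 to 0.91). These intervals cover counting error only. The stressed level thus ran from 35.3% to 176% of the unexposed FPKM, and the pooled log2 difference of -0.34 (SE 0.34) was no larger than its error. Without the stressed Chinese Field Dog pituitary it was -0.67, and without the unexposed Beagle adrenal cortex -0.01.

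DNAJB1, the heat-inducible J-domain partner of HSP70, lies on chromosome 20 at 48127367 to 48133952. In adrenal cortex the Beagle read 40.8 FPKM unexposed and 15.0 stressed, and the Chinese Field Dog 19.3 and 16.6. In pituitary it read 19.0 unexposed and 12.6 stressed in the Beagle, and 12.1 and 14.0 in the Chinese Field Dog. The unexposed Beagle adrenal library was over 2-fold above every other library, and the remaining 7 lay between 12.1 and 19.3 FPKM. The pooled stress difference was a log2 of -0.49 (SE 0.25, limma adjusted p = 0.958), and -0.24 without the unexposed Beagle adrenal library.

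DNAJA1, a J-domain protein of higher and steadier level, lies on chromosome 11 at 50156088 to 50167536, an interval shared with 1 other gene. It read 469.9 FPKM unexposed and 256 stressed in Beagle adrenal cortex, and 310.0 and 368 in Chinese Field Dog adrenal cortex. In pituitary it read 271 unexposed and 224 stressed in the Beagle, and 215 and 290.5 in the Chinese Field Dog. Stressed libraries were lower in both Beagle tissues and higher in both Chinese Field Dog tissues. The pooled stress difference was a log2 of -0.12 (SE 0.22), and it was 0.08 without the unexposed Beagle adrenal library.

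BAG3, which releases clients from HSP70 and links it to small heat-shock proteins and autophagy, lies on chromosome 28 at 29792502 to 29815693. Its levels in adrenal cortex were 17.9 FPKM unexposed and 12.7 stressed in the Beagle, and 12.3 and 9.17 in the Chinese Field Dog. In pituitary they were 13.5 and 10.4 in the Beagle, and 10.1 and 9.63 in the Chinese Field Dog. Stressed libraries were lower in 4 of 4 pairs, although the last pair differed by less than counting error, with a log2 ratio in scaled counts of -0.07 (interval -0.26 to 0.12). The pooled log2 difference was -0.31 (SE 0.10, under 0.05 before adjustment, limma adjusted p = 0.958).

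HSP90AA1, the inducible cytosolic HSP90, lies on chromosome 8 at 70092236 to 70096164. It read 1214 FPKM unexposed and 723 stressed in Beagle adrenal cortex, and 1043 and 996 in Chinese Field Dog adrenal cortex. In pituitary it read 811 unexposed and 745 stressed in the Beagle, and 798 and 955 in the Chinese Field Dog. Both unexposed adrenal libraries were above both stressed ones, with the Beagle pair differing by 1.68-fold, while the pituitary groups overlapped. The pooled log2 difference was -0.17 (SE 0.17, limma adjusted p = 0.958), and -0.02 without the unexposed Beagle adrenal library.

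HSPB1, the small heat-shock protein HSP27, lies on chromosome 6 at 7487249 to 7490096 and showed the steadiest stress difference of the 8 genes. Adrenal cortex read 776 FPKM unexposed and 526 stressed in the Beagle, and 800.5 and 592 in the Chinese Field Dog. Pituitary read 366 unexposed and 232 stressed in the Beagle, and 259.6 and 164 in the Chinese Field Dog. In each tissue both unexposed libraries were above both stressed ones, and the stressed level was between 63.1% and 73.9% of the unexposed level in all 4 pairs. The pooled log2 difference was -0.58 (SE 0.14, under 0.05 before adjustment, limma adjusted p = 0.958), and it stayed between -0.69 and -0.48 when each library was left out in turn. DESeq2 on recovered reads gave -0.57 with an adjusted p of 0.117, and edgeR gave -0.57 with an adjusted p of 0.96.

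HSPE1, the mitochondrial co-chaperonin HSP10, lies on chromosome 37 at 6984950 to 7026304, an interval shared with 1 other gene. It read 3722 FPKM unexposed and 3562 stressed in Beagle adrenal cortex, and 3740.1 and 5219 in Chinese Field Dog adrenal cortex. Pituitary levels were far lower, at 257 unexposed and 249.5 stressed in the Beagle and 265 and 292 in the Chinese Field Dog. The stressed Chinese Field Dog libraries were the highest of their tissue, and the Beagle pairs differed by under 5% of the unexposed level on the FPKM scale. For the Beagle pituitary the scales differed: the log2 ratio was -0.04 in FPKM and -0.26 in scaled counts (interval -0.38 to -0.14). The pooled log2 difference was 0.13 (SE 0.12).

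A pair of other rows was read beside the members found. Both rows were chosen after their values were seen. HSPA1 lies outside the set. The row without a symbol is described as the product of HSPD1, a named member, but was not matched to it by symbol. HSPA1 is a different gene from the missing HSPA8 and does not stand in for it. HSPA1, an inducible HSP70 gene on chromosome 12 at 1298769 to 1300710, read 676 FPKM unexposed and 198 stressed in Beagle adrenal cortex, 322 and 279 in Chinese Field Dog adrenal cortex, 188 and 129 in Beagle pituitary and 176 and 133 in Chinese Field Dog pituitary. It was lower in 4 of 4 stressed libraries, with a pooled log2 difference of -0.73 (SE 0.26, under 0.05 before adjustment, limma adjusted p = 0.958). A row without a symbol, described in the files as mitochondrial HSP60 and given the interval of HSPE1, read 1220.3 and 1135 FPKM in unexposed and stressed Beagle adrenal cortex and 1578 and 1785 in Chinese Field Dog adrenal cortex. In pituitary it read 162 and 135 in the Beagle and 140.3 and 158 in the Chinese Field Dog, so it took the direction of HSPE1 in every pair.

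The first question of the design was whether chronic stress altered these genes over both breeds and tissues. None of the 8 genes passed limma at an adjusted p of 0.05, and of all 14808 genes tested 0 passed, 0.0%. At an unadjusted p under 0.05 limma held 2 of the 8, HSPB1 and BAG3, and 596 of all genes, 4.02%. EdgeR called 0 of all genes and DESeq2 called 25, none of the 8. The 8 genes were lower in stressed dogs in 7 cases, against 48.9% of all genes tested. Their median log2 was -0.24 against 0.004 over all genes tested. All 8 were read in the same libraries, so the cases are not independent. HSPB1 and BAG3 were lower in all 4 pairs, which held for 6.76% of all genes.

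Within adrenal cortex, 4 of the 8 genes, HSPH1, DNAJB1, HSP90AA1 and HSPB1, had both unexposed libraries above both stressed ones, against 12.7% of all genes, and 0 had the opposite, against 15.8%. In pituitary 2 of 8, HSPB1 and HSF1, had both unexposed libraries above both stressed ones, against 14.6% of all genes. In scaled counts this held for HSPB1 alone. Limma fitted to the 4 ratios called none of the 8 in either tissue, where 0.00675% of all genes were called in adrenal cortex and also 0.00675% in pituitary. Before adjustment, HSPB1 (log2 -0.50, SE 0.13) and BAG3 (log2 -0.42, SE 0.13) were under 0.05 in adrenal cortex, each with an adjusted p of 1. In pituitary the same held for HSPB1 (log2 -0.66, SE 0.13, adjusted p = 0.877). At an unadjusted p under 0.05 the counts over all genes were 436 (2.94%) in adrenal cortex and 610 (4.12%) in pituitary. EdgeR called 0 genes in each. The difference between tissues was called for none of the 8, against 0.00675% of all genes, and HSPH1 had the largest, a log2 of 0.91 (SE 0.68, adjusted p = 0.93). That value was 0.23 without the Beagle adrenal pair or the Chinese Field Dog pituitary pair, and 1.59 without either of the other two.

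In Beagles 7 of 8 were lower in both stressed libraries, against 26.3% of all genes, and the exception, HSF1, differed by a log2 of 0.05 in adrenal cortex. In Chinese Field Dogs 3 of 8, HSPB1, BAG3 and HSF1, were lower in both stressed libraries, against 25.8% of all genes, and 2 of 8, HSPE1 and DNAJA1, were higher in both, against 22.4%. In scaled counts 2 of 8, HSPB1 and BAG3, were lower in both. HSPE1 and DNAJA1 were lower in both Beagle pairs as well, a combination met by 5.86% of all genes. The Beagle ratio lay below the Chinese Field Dog ratio in both tissues for 6 of 8, against 27.2% of all genes, the exceptions being HSPB1 and HSF1. In scaled counts HSPB1 joined them, with 7 of 8.

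**Figure D2:**
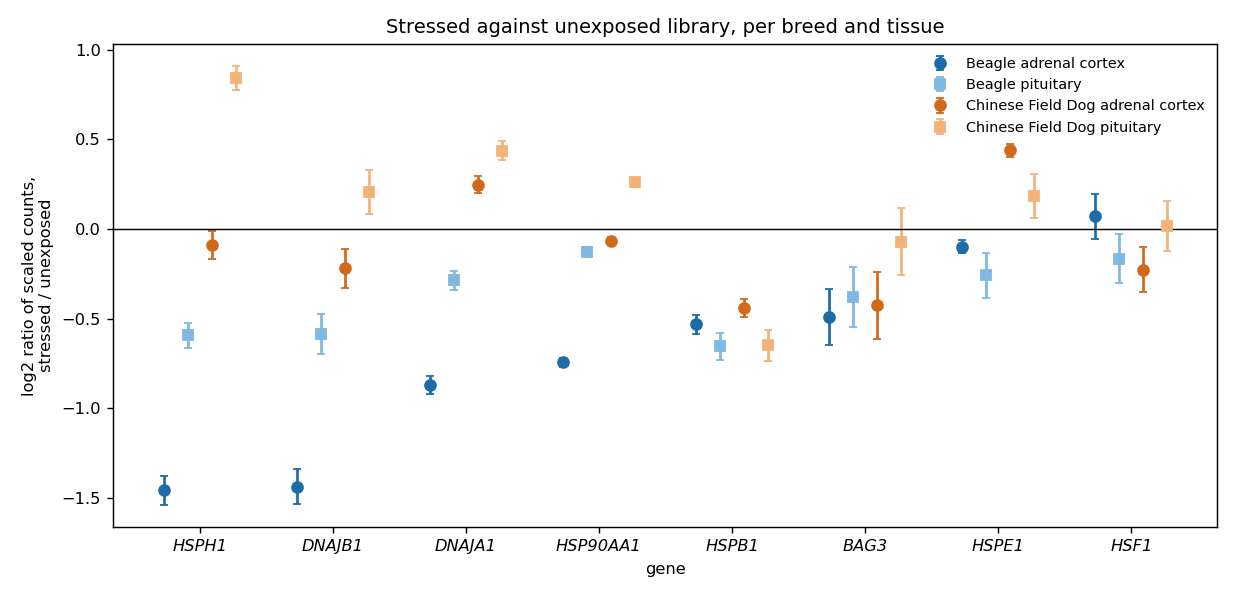
Log2 ratio of scaled counts in the stressed against the unexposed library (vertical axis) for each of the 8 genes (horizontal axis), with circles for adrenal cortex and squares for pituitary, blues for Beagle and oranges for Chinese Field Dog. Bars are 95% Clopper-Pearson intervals on recovered reads and cover counting error only. Beagle points lie below 0 except for HSF1 in adrenal cortex, and the 4 HSPB1 points lie together between -0.66 and -0.44.

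The test of that breed difference passed for none of the 8, against 0.027% of all genes. HSPH1 had the largest difference, with a stress log2 higher by 1.37 in Chinese Field Dogs (SE 0.47, limma adjusted p = 0.863). It was followed by DNAJB1 at 0.96 (SE 0.35) and DNAJA1 at 0.92 (SE 0.27), with the same adjusted p. Leaving out the Chinese Field Dog pituitary pair moved HSPH1 to 0.91, DNAJB1 to 0.76 and DNAJA1 to 0.82. Leaving out the Beagle adrenal pair gave 0.91, 0.54 and 0.62. EdgeR on recovered reads called none of the 8 and 0 of all genes. At an unadjusted p under 0.05 limma held 2 of the 8, HSPH1 and DNAJA1, and 515 of all genes, 3.48%.

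Read breed by breed, a contrast added after the data were seen, the stress difference in Beagles was a median log2 of -0.51 over the 8 genes against -0.003 over all genes tested. At an unadjusted p under 0.05 it held 5 of the 8, HSPB1, DNAJB1, HSPH1, DNAJA1 and BAG3, against 2.78% of all genes, with an adjusted p of 1 for each. The adrenal and pituitary ratios served as the replicates of each breed, and both may come from the same dogs. DNAJB1 read -0.97 (SE 0.25) and HSPH1 -1.02 (SE 0.33). Without the Beagle adrenal pair they read -0.55 and -0.57, and neither was under 0.05 before adjustment. In Chinese Field Dogs the median was 0.04 against 0.0064 over all genes tested. There HSPB1 alone of the 8 was under 0.05 before adjustment (log2 -0.55, SE 0.14, adjusted p = 0.759), as were 704 of all genes, 4.75%. Called shares over all genes were 0.0338% in Beagles and 0.00675% in Chinese Field Dogs.

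Single pairs have no spread of their own, so these are given as size only. The 8 genes were lower with stress in 7 cases in Beagle adrenal cortex, 8 in Beagle pituitary, 6 in Chinese Field Dog adrenal cortex and 3 in Chinese Field Dog pituitary, against 49.9%, 49.7%, 48.7% and 53.4% of all genes. In the Beagle adrenal cortex 2 of 8, HSPH1 and DNAJB1, differed at least 2-fold, against 3.0% of all genes. None of the 8 did so in the Beagle pituitary (2.2% of all genes), the Chinese Field Dog adrenal cortex (1.9%) or the Chinese Field Dog pituitary (8.77%). In the authors' deposited table the lowest p-value of any of the 8 genes in any comparison was 0.0791, for HSPH1, and the FDR was 0.99942 for all of them.

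The unexposed Beagle adrenal library entered the stress, breed and tissue comparisons alike, so these share it. It was the highest of all 8 libraries for 5 of 8 genes, HSPH1, DNAJB1, HSP90AA1, DNAJA1 and BAG3, against 10.0% of all genes, and HSPA1 did the same. Among the 4 adrenal libraries alone the same 5 had it highest, against 29.0% of all genes. Leaving the stressed Chinese Field Dog pituitary aside, it was the highest of 7 for the same 5, against 12.2% of all genes. Some marker lists also summed higher there than in the stressed Beagle adrenal cortex. The 3 of 6 fat-cell markers matched summed to 35.0 FPKM against 5.65, with 0 of 3 at 0 in both. The 7 adrenal medulla markers summed to 5829 against 4731. The 6 glial markers summed to 36.6 FPKM against 16.5, with OLIG2 at 0 in the unexposed and OLIG1 in the stressed library. The 7 forebrain neuron markers summed to 41.0 against 17.2, with NEUROD6 and TBR1 at 0 in both and CCK in the stressed library. The 7 lymphocyte markers summed to 7.32 against 3.53, with CD79B and MS4A1 at 0 in the stressed library. They summed to 28.6 in unexposed and 23.4 in stressed Chinese Field Dog adrenal cortex, above the unexposed Beagle adrenal library. The part of these cells in the result was not tested. The 12 immediate-early genes summed to 1410.3 FPKM there and to 1378 in the stressed Beagle adrenal cortex, with 8 of the 12 higher in the stressed library.

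The stressed Chinese Field Dog pituitary was the highest of the 4 pituitary libraries for 4 of 8 genes, HSPH1, HSP90AA1, HSPE1 and DNAJA1, against 32.9% of all genes. The unexposed Beagle pituitary was the highest for the other 4, DNAJB1, HSPB1, BAG3 and HSF1, against 26.6%. The former is the library with the forebrain and glial markers given above, and their part in these levels was not tested. Over the other 3 pairs, 5 of 8 genes were lower with stress in every pair, HSPH1, DNAJB1, HSP90AA1, HSPB1 and BAG3, against 15.2% of all genes.

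Between tissues, 3 of 8 genes were lower in pituitary by limma, HSPE1, HSPB1 and HSF1, and none was higher. Over all genes 60.5% were called, 31.2% lower and 29.3% higher, so the 3 of 8 called are a smaller share than over all genes. HSPE1 was 15.1-fold lower in pituitary (log2 -3.91, SE 0.12, adjusted p = 6.33e-06), and edgeR gave a log2 of -3.55 on reads. HSPB1 was 2.70-fold lower (log2 -1.43, SE 0.14, adjusted p = 0.000341) and HSF1 1.28-fold lower (log2 -0.36, SE 0.08, adjusted p = 0.0081). For these 3 genes every adrenal library was above every pituitary library, against 29.5% of all genes. The same call held when each library was left out in turn.

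The other members did not pass between tissues: HSPH1 read 0.35 higher on the log2 scale in pituitary (SE 0.34, adjusted p = 0.409; 0.016 without the stressed Chinese Field Dog pituitary and 0.68 without the unexposed Beagle adrenal cortex), and DNAJB1, DNAJA1, HSP90AA1 and BAG3 between -0.54 and -0.21, with adjusted p from 0.102 to 0.241. DNAJB1 (log2 -0.74) and BAG3 (log2 -0.31) passed without the stressed Chinese Field Dog pituitary, where 9457 of all genes were called. DNAJB1 (log2 -0.73) and DNAJA1 (log2 -0.64) passed without the stressed Beagle adrenal cortex, where 7872 of all genes were called. The full set of libraries called 8953. The row for mitochondrial HSP60 was 9.41-fold lower in pituitary (log2 -3.23, SE 0.14, adjusted p = 1.89e-05), and HSPA1 was 2.14-fold lower (log2 -1.10, SE 0.26, adjusted p = 0.0111).

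Between breeds limma called none of the 8, against 0.0338% of all genes. BAG3 came nearest, lower in Chinese Field Dogs by a log2 of -0.36 (SE 0.10, limma adjusted p = 0.319). Both Beagle libraries were above both Chinese Field Dog libraries for BAG3 alone in adrenal cortex, against 24.3% of all genes, and for BAG3 alone in pituitary, against 22.5%. In FPKM the reverse held for HSPE1 alone in each tissue, against 18.1% of all genes in adrenal cortex and 16.3% in pituitary, while in scaled counts it held for HSPE1 in neither. Among unexposed dogs 5 of 8 were higher in the Beagle in both tissues, HSPH1, DNAJB1, HSP90AA1, DNAJA1 and BAG3, against 32.1% of all genes. At an unadjusted p under 0.05 limma held 1 of the 8, BAG3, and 1611 of all genes, 10.9%. DESeq2 called 335 genes and edgeR 10, none of them among the 8.

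The rest of the chaperone network was read from 3 lists. Of 52 other heat-shock and co-chaperone genes, 45 were matched and 43 tested. They were lower in the stressed library in 36 of 43 cases in Beagle adrenal cortex (median log2 -0.19), 33 in Beagle pituitary (-0.09), 24 in Chinese Field Dog adrenal cortex (-0.02) and 13 in Chinese Field Dog pituitary (0.10). Over all genes the share lower was 49.9%, 49.7%, 48.7% and 53.4% in these pairs. For the Chinese Field Dog adrenal cortex the median turned to 0.005 when libraries were re-centred on their medians. None of the 43 passed limma for exposure or for breed.

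By size of the pooled stress difference the lowest of these genes were HSPA1L, a testis-rich HSP70, at a log2 of -0.37 (SE 0.10), JMJD6, a hydroxylase, at -0.29, and SERPINH1, the collagen chaperone, at -0.25. The highest were BAG1, an HSP70 exchange factor, at 0.25, HSPA12A, a distant HSP70, at 0.22 and HSBP1, which binds HSF1, at 0.19. All 6 had an adjusted p of at least 0.958. HSPA12A read 27.8 FPKM in the stressed Chinese Field Dog pituitary, the library with the forebrain and glial markers, and between 1.69 and 7.05 FPKM in the other libraries. JMJD6 in Beagle adrenal cortex read 27.9 FPKM unexposed and 16.7 stressed.

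The cytosolic chaperonin TRiC folds actin and tubulin, and prefoldin delivers chains to it. PFDN5 was left out because its symbol occurs on more than 1 row, and 13 genes were tested. They were lower in 12 of 13 cases with stress in Beagle adrenal cortex (median log2 -0.27) and in 8 of 13 in Beagle pituitary (-0.10). In the Chinese Field Dog they were higher in 13 of 13 cases in adrenal cortex (0.26) and in 13 of 13 in pituitary (0.19), or 12 of 13 after re-centring. CCT5 read 151 FPKM unexposed and 117 stressed in Beagle adrenal cortex and 131 and 151 in Chinese Field Dog adrenal cortex. CCT7 went the other way in Beagles, with 3.23 FPKM unexposed and 8.05 stressed in adrenal cortex and 2.15 and 5.73 in pituitary. These levels are low and far below the adrenal levels of CCT5, and how fully the CCT7 row captures its gene was not tested. Among the pooled stress differences CCT7 (log2 0.63), PFDN1 (0.24) and PFDN6 (0.14) were the highest, and PFDN2 (-0.11), CCT5 (-0.04) and CCT6A (-0.03) the lowest. No TRiC or prefoldin gene passed limma for exposure or breed.

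The endoplasmic-reticulum chaperones, which fold secreted protein, gave 14 tested genes. They were lower with stress in 12 of 14 cases in Beagle adrenal cortex (median log2 -0.23), 7 in Beagle pituitary (-0.02), 8 in Chinese Field Dog adrenal cortex (-0.01) and 14 in Chinese Field Dog pituitary (-0.35). The median for the Chinese Field Dog adrenal cortex was 0.02 after re-centring. CALR, the calcium-binding chaperone calreticulin, had the lowest pooled value, a log2 of -0.41 (SE 0.09, limma adjusted p = 0.958). It was lower in 4 of 4 pairs and was the 1 gene of these lists that DESeq2 called for exposure. CRELD2 and HYOU1 followed at -0.26 each, and CANX (-0.01), DNAJB11 (-0.0036) and SDF2L1 (0.02) were the highest. In the stressed Chinese Field Dog pituitary the median of these chaperones and that of the 8 heat-shock genes, 0.17, thus lay on opposite sides of 0. That library is the one with the forebrain and glial markers given above, and their part in this split was not tested.

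**Figure D3:**
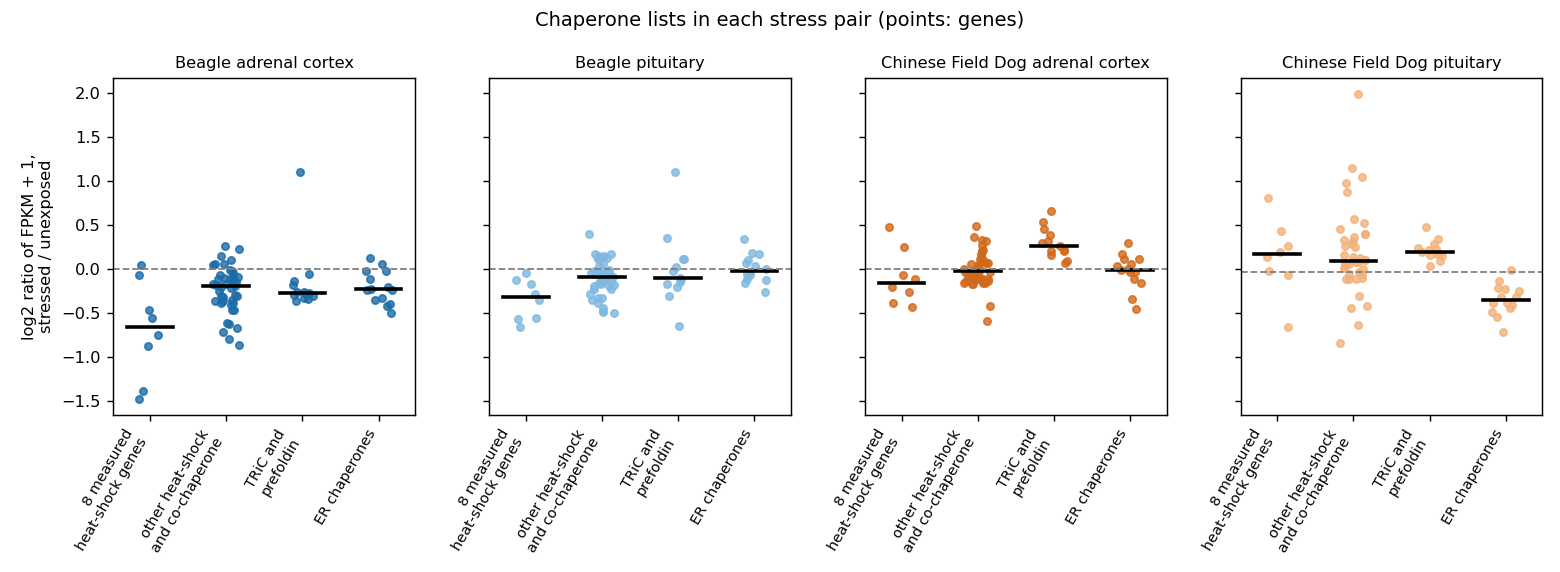
Log2 ratio of FPKM + 1 in the stressed against the unexposed library (vertical axis) for the genes of 4 chaperone lists (horizontal axis), with 1 panel per breed and tissue. Points are genes, black bars are list medians and the dashed line is the median of all genes tested. The median of the 8 measured heat-shock genes runs from -0.65 in Beagle adrenal cortex to 0.17 in Chinese Field Dog pituitary, where all 14 endoplasmic-reticulum chaperones lie below 0.

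Between tissues, of the 43 other heat-shock genes 17 were lower and 11 higher in pituitary by limma, of the 13 TRiC and prefoldin genes 9 were lower and 0 higher, and of the 14 endoplasmic-reticulum chaperones 2 were lower and 9 higher, against 31.2% lower and 29.3% higher over all genes. SERPINH1 was lower in pituitary by a log2 of -2.44 and CCT5 by -0.59, while CALR was higher by 0.61. Named after their values were seen, the mitochondrial chaperones HSPA9 (log2 -1.38) and TRAP1 (-0.57) were lower in pituitary, as HSPE1 was.

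Across the 8 libraries, after each tissue's mean was removed, HSPH1, DNAJB1, DNAJA1 and HSP90AA1 varied together. Pearson's r was 0.94 for HSPH1 with DNAJA1, 0.89 with HSP90AA1 and 0.87 with DNAJB1. The 28 pairs of genes ranged from -0.70 to 0.94 with a median of 0.31. DNAJB1 was also close to BAG3 (r = 0.84), while HSPE1 ran against BAG3 (r = -0.70) and HSF1 (r = -0.67). These are descriptions over n = 8 libraries that share depth, breed and exposure among the genes.

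**Figure D4:**
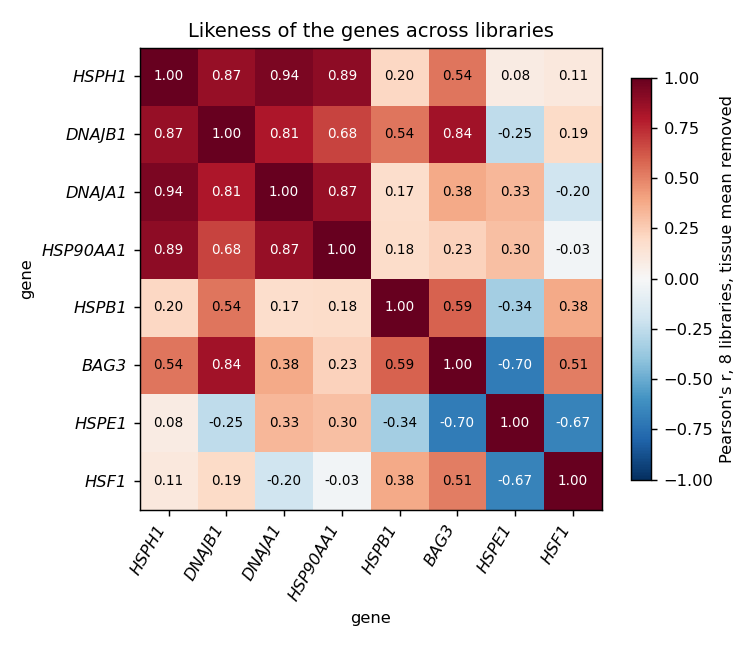
Pearson's r between the 8 genes over 8 libraries, on log2(FPKM + 1) with each tissue's mean removed, coloured from -1 (blue) to 1 (red). HSPH1, DNAJB1, DNAJA1 and HSP90AA1 form a block with r from 0.68 to 0.94, and HSPE1 has negative r with BAG3, HSF1, HSPB1 and DNAJB1.

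With each library left out in turn, r stayed between 0.88 and 0.99 for HSPH1 with DNAJA1 and between 0.84 and 0.92 for HSPH1 with HSP90AA1. The values of DNAJB1 rest in part on the unexposed Beagle adrenal cortex: without it r was 0.65 with HSPH1, 0.54 with DNAJA1 (0.81 over all 8), 0.40 with HSP90AA1 (0.68 over all 8) and 0.58 with BAG3. Without the stressed Chinese Field Dog adrenal cortex, r for HSPE1 was -0.24 with BAG3 and 0.25 with HSF1, so the sign of the latter rests on 1 library. Over the 6 libraries left without the Chinese Field Dog stressed pituitary and the Beagle unexposed adrenal cortex, r was 0.84 for HSPH1 with DNAJA1, 0.79 with HSP90AA1 and 0.91 with HSPB1, which had been 0.20 over all 8 libraries.

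Among 7494 genes with a unique symbol and a mean of at least 10 FPKM, the genes most like HSPH1 by the same r were CAMK2N2 (0.99), DNAJB6 (0.98), a J-domain protein, and CDC37 (0.97), which brings kinases to HSP90. JMJD6 was the most like DNAJB1 (0.99), NMNAT2 the most like HSP90AA1 (0.97), TPD52 the most like DNAJA1 (0.96) and HEXIM1 the most like BAG3 (0.97). SPINT1 was the most like HSPB1 (0.98), UQCC2, an assembly factor of the respiratory chain, the most like HSPE1 (0.99) and FAM57A the most like HSF1 (0.96). An r above 0.9 was reached by 0.44% of the genes for HSPH1 and by 1.29% for HSPE1. How far these likenesses rest on the stressed Chinese Field Dog pituitary or the unexposed Beagle adrenal cortex was not tested.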

How the data were processed

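Messenger RNA was prepared with TruSeq reagents and read on a Genome Analyzer IIx, per the labels, whose extraction note speaks of spleen although titles and tissue labels, used here, give adrenal cortex and pituitary. TopHat, an aligner, and the genome build CanFam3.1 are named in the submitters' processing notes. The counting program and annotation are not given in the sources used here. The authors deposited 8 tables of 24580 genes, each with a scaled count (a signal per gene that, judged by its values, is read counts divided by 1 factor per library) and an FPKM per library, and with the authors' own p-value, FDR and log2 ratio. The 16 repeated columns compared were identical in 16 of 16 cases. Dividing scaled counts under 1000 by each library's step gave whole reads, within 0.02, for 99.46% to 99.55% of values. For the stressed Beagle adrenal cortex and stressed Chinese Field Dog pituitary, with steps near 1, these are near the true counts and not exact.

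Fits used limma 3.58.1 in R 4.3.3 with an intensity trend on log2(FPKM + 1), which understates changes of low genes, over 14808 genes with a mean of at least 1 FPKM. Additive terms for tissue, exposure and breed left 4 residual degrees of freedom, so interactions enter the error. Ratios of 4 stressed-unexposed pairs were fitted with 1 coefficient per tissue or breed and 2 residual degrees of freedom. In the fit per breed the tissues served as replicates, and in the fit per tissue the breeds did. The Benjamini-Hochberg adjustment ran over every gene tested, with calls at 0.05. Reads were tested with edgeR 4.0.16 (0 genes called for exposure, 8966 for tissue, 10 for breed) and DESeq2 1.42.0. Scripts were tested on simulated data. All members found were named, with the 3 lowest and 3 highest genes of each list by pooled stress difference. The members and lists were chosen with earlier results of these data known. The breed-wise stress contrasts were chosen after seeing the data. No sequences or reference coordinates were used, since no genome of the files' build was at hand.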

Additional observations from a re-analysis of the deposited data

Results flagged for a closer look

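HSPE1 and DNAJA1 differed in direction between the breeds: stressed libraries were lower in both Beagle pairs and higher in both Chinese Field Dog pairs, which held for 5.86% of all genes. For DNAJA1 the log2 ratios were -0.87 and -0.28 in Beagle adrenal cortex and pituitary, and 0.25 and 0.43 in those of the Chinese Field Dog. The difference between breeds was a log2 of 0.92 (SE 0.27, limma adjusted p = 0.863), so it did not pass the test. For HSPE1 the ratios were near 0 in the Beagle, at -0.06 and -0.04, and read 0.48 and 0.14 in the Chinese Field Dog. The HSPE1 difference was 0.36 (SE 0.24, limma adjusted p = 0.863). Every ratio sets 1 library against 1 library, and the stressed Chinese Field Dog pituitary is the one with the forebrain and glial markers.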

How the results depend on the processing

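No paired analysis was possible because every group holds a single library, so no block by replicate number could be fitted; the stress ratios pair libraries by breed and tissue instead. The tissue calls of HSPE1, HSPB1 and HSF1 were kept under every alternative run, and BAG3 joined them after re-centring (log2 -0.29, limma adjusted p = 0.0293). The cause of the changes below was not tested. Exposure called 0 genes by limma and 25 by DESeq2, with 0 to 3 when each library was left out (3 without the unexposed Beagle adrenal cortex). Breed called 5 genes, 2 with no filter on low values, 10 by edgeR and 335 by DESeq2, with 0 to 7 over libraries left out. The adrenal stress fit called 1 gene and 0 with a pseudocount of 0.1, no filter, a mean of at least 5 FPKM or edgeR, with 0 to 2 over pairs left out. The pituitary fit called 1, then 2 with a pseudocount of 0.1 and 0 by edgeR, with 0 to 146 (146 without the Beagle pair, 45 without the Chinese Field Dog pair). The difference between tissues called 1, then 0 with a pseudocount of 0.1, no filter or edgeR and 2 without the intensity trend, with 0 to 85 (85 without the Beagle pituitary pair, 40 without the Chinese Field Dog one). Stress in Beagles called 5 and 0 by edgeR, with 0 to 6, and in Chinese Field Dogs 1 and 0 by edgeR, with 0 to 39 (39 without the pituitary pair, 28 without the adrenal pair). The difference between breeds called 4, then 2 with no filter and 0 by edgeR, with 0 to 29 (29 and 28 without the Chinese Field Dog adrenal and pituitary pair). No member was among these calls in the full set of libraries.

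Genes at least 2-fold apart were more numerous with a pseudocount of 0.1 and in scaled counts: from 444 to 852 and 952 for stress in Beagle adrenal cortex, 326 to 636 and 569 in Beagle pituitary, and 281 to 633 and 667 in Chinese Field Dog adrenal cortex. Between breeds they went from 614 to 1057 and 1104 in unexposed adrenal cortex, 416 to 901 and 1047 in stressed adrenal cortex and 487 to 860 and 801 in unexposed pituitary.

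Signs turned for DNAJA1 between breeds by edgeR (log2 0.0037), HSPE1 for stress in pituitary by edgeR (-0.043), HSF1 for the difference between tissues after re-centring (-0.037) and, in scaled counts, the ratio of HSPE1 between breeds in unexposed pituitary (-0.15) and unexposed adrenal cortex (-0.027) and that of HSF1 with stress in Chinese Field Dog pituitary (0.016). With each library or pair left out, log2 values crossed 0 as follows. For exposure, DNAJA1 ran from -0.26 to 0.078. For breed, HSPH1 ran from -0.36 to 0.30, DNAJA1 from -0.19 to 0.19 and HSF1 from -0.042 to 0.040. For stress in adrenal cortex, HSPE1 ran from -0.063 to 0.48, DNAJA1 from -0.87 to 0.25 and HSF1 from -0.26 to 0.051. For stress in pituitary, HSPH1 ran from -0.57 to 0.80, DNAJB1 from -0.55 to 0.19, HSP90AA1 from -0.12 to 0.26, HSPE1 from -0.040 to 0.14 and DNAJA1 from -0.28 to 0.43. For the difference between tissues, HSPE1 ran from -0.43 to 0.11, DNAJA1 from -0.17 to 0.95 and HSF1 from -0.14 to 0.17. For stress in Beagles HSF1 ran from -0.17 to 0.051, and in Chinese Field Dogs HSPH1 ran from -0.11 to 0.80, DNAJB1 from -0.21 to 0.19 and HSP90AA1 from -0.065 to 0.26. For the difference between breeds, HSPB1 ran from -0.053 to 0.17 and HSF1 from -0.21 to 0.039. With a pair left out, the fit leans on 1 ratio, assumed to vary like the others. Of the values of single genes, 1055 were classed as the same, 34 as moved, 34 as reversed and 5 as stronger. For ratios of single pairs the class of the same allowed any shift within counting error. A sign near 0 could therefore turn within that class.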

Other observations

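Further chaperone genes, named after their values were seen, stood out in single libraries. The unexposed Beagle adrenal cortex was the highest of the 4 adrenal libraries for 29.0% of all genes. The stressed Chinese Field Dog pituitary was the highest of the 4 pituitary libraries for 32.9%. CRYAB, a small heat-shock protein abundant in glia and muscle, read 19.9 FPKM in the stressed Chinese Field Dog pituitary and between 6.4 and 11.8 FPKM in the other 7 libraries. HSPB8, the small heat-shock partner of BAG3, read 24.5 FPKM in the unexposed Beagle adrenal cortex and between 12.4 and 13.7 in the other adrenal libraries. HSPB6 read 22.5 FPKM in the same unexposed library against 13.7 in the stressed one, and was lower in pituitary by a log2 of -1.99 (limma adjusted p = 0.000215). HSPA5, the endoplasmic-reticulum HSP70, read 275 FPKM in the stressed Chinese Field Dog pituitary and between 373 and 383 in the other pituitary libraries. The former library held the forebrain and glial markers, and their part in the CRYAB and HSPA5 levels was not tested.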
